A study of Mus musculus with 24 samples.

Results

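Peroxisomes are small organelles, bounded by 1 membrane, that break down fatty acids which mitochondria handle poorly, oxidise D-amino acids and 2-hydroxy acids, and make the first intermediates of ether lipids. Their oxidases pass electrons to oxygen and form hydrogen peroxide, which catalase removes. Peroxins, the products of the Pex genes, build the organelle: some place proteins in its membrane and others carry enzymes from the cytosol into its matrix. In kidney the organelle is most abundant in the proximal tubule, and in rodents many of its fatty acid enzymes are known targets of the nuclear receptor PPAR alpha. The 32 genes described here were chosen by name for these roles, with earlier results of these data known, and all 32 had a row among the 16921 genes of the deposited tables. They comprise 12 peroxins, 2 transporters of the peroxisomal membrane and 18 enzymes, and all 32 passed the filter on low counts.

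The libraries came from kidney cortex of male mice, 22 months old, on the C57BL6/J background, and were read from the 3′ ends of transcripts in reads of 50 bases. KO mice lacked FGF21, a hormone whose level in blood goes up in protein restriction, and WT mice had it. The low protein diet (LP) held 5% casein and the normal protein diet (NP) 20%, both given from 3 months of age. The 4 groups were KO_LP, KO_NP, WT_LP and WT_NP, with 6 libraries each and 1 mouse per library. The labels say nothing of how the knockout was made, and Fgf21 itself was not analysed here, so the genotypes rest on the labels.

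Totals were 8.47 to 14.1 M counts per library in KO_LP, 10.7 to 16.3 M in KO_NP, 15.2 to 18.4 M in WT_LP and 10.6 to 21.1 M in WT_NP. Markers of the proximal tubule were high in all 24 libraries, with a mean of 7.68 to 8.78 log2 CPM (counts scaled to a library total of 1000000) over 12 markers of its first segments (S1 and S2) in KO_LP, 8.77 to 9.10 in KO_NP, 8.42 to 9.12 in WT_LP and 8.26 to 8.89 in WT_NP. In a bulk sample, fewer cells of a type and less RNA per cell cannot be told apart. Libraries KO_LP 4, KO_LP 6 and WT_NP 1 stood apart. KO_LP 4 had the highest mean over 10 macrophage markers (6.86 log2 CPM), KO_LP 6 had the lowest mean over the S1 and S2 markers, and WT_NP 1 had the lowest of the WT libraries. For the results that turn on them, values with and without them are given.

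The genes span a wide range of expression. At the top, Nudt19, a hydrolase of coenzyme A esters that is abundant in mouse kidney, had a median of 652 CPM over the 24 libraries, and Cat, encoding catalase, had 538 CPM. Phyh, which starts the alpha oxidation of branched fatty acids, had a median of 419 CPM, and Pipox, an oxidase of sarcosine and pipecolic acid, 371 CPM. At the bottom, Abcd2, a transporter of very long chain fatty acids, had 1 to 15 counts per library and a median of 0.51 CPM. Its sister transporter Abcd3 had a median of 339 CPM. Of the peroxins, Pex11a, which promotes growth and division of the organelle, was the most abundant at a median of 174 CPM, and the other 11 had medians between 8.14 CPM (Pex10) and 55.7 CPM (Pex19). In libraries of this kind a transcript gives reads at its 3′ end, so these CPM levels need no correction for transcript length.

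The genes differed in how steady they were within a group. Pex19, the chaperone for peroxisomal membrane proteins, had the smallest mean coefficient of variation within groups (7.11%), followed by Pex3, its docking factor in the membrane (8.28%), and Gnpat, the acyltransferase that starts ether lipid synthesis (9.18%). The largest were those of Abcd2 (48.3%), Amacr, the racemase of 2-methyl fatty acids (37.2%), Acaa1b, a thiolase of beta oxidation (29.6%), and Pex11a (28.1%). Acaa1a and Acaa1b are near-identical copies: 190 of 451 windows of 50 bases at the end of the Acaa1a transcript also occur in Acaa1b, so reads may be split between them in a way the counts do not show.

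**Figure D1:**
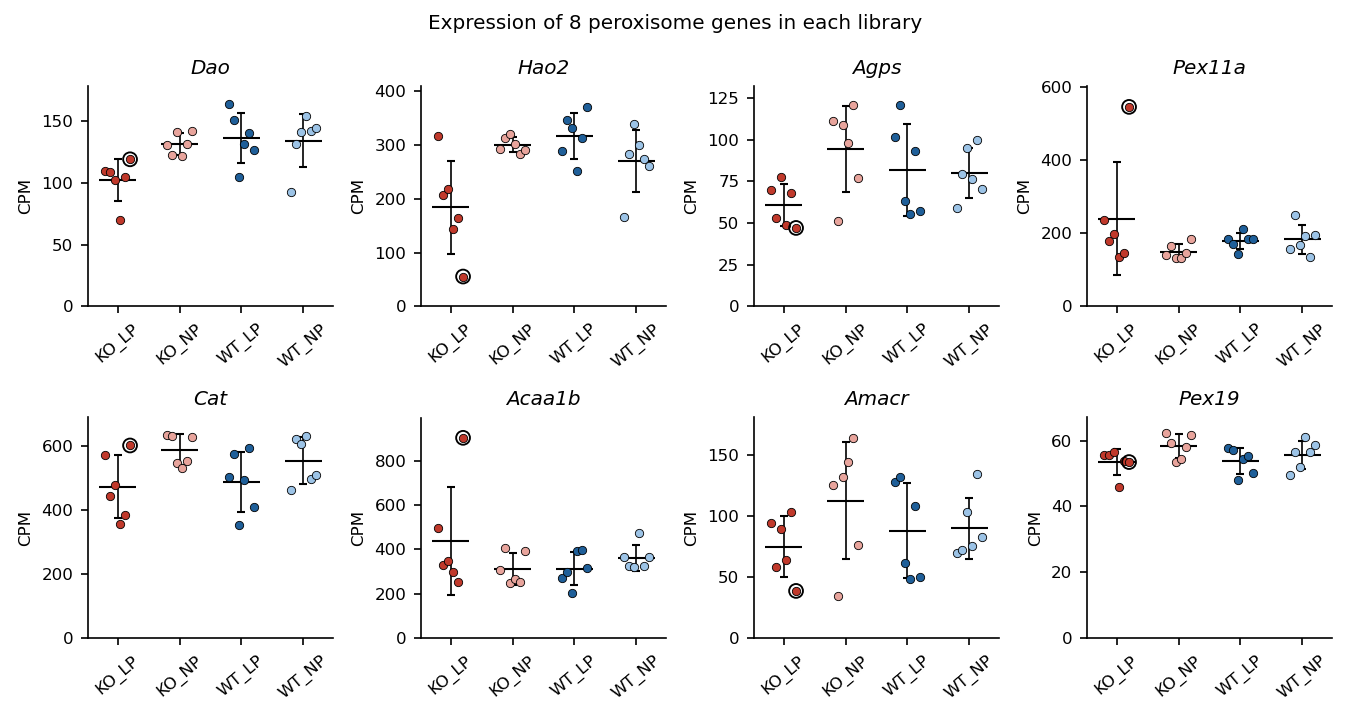
Expression in CPM (vertical axis, from 0) of 8 peroxisome genes in each of the 24 libraries, by group (horizontal axis). Lines are group means, error bars are SD with n = 6, and the ringed point is library KO_LP 6, which holds the highest Pex11a (544 CPM) and Acaa1b (904 CPM) and the lowest Hao2 (55.4 CPM) of all libraries.

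The first question of the design is what the LP diet changed in mice without FGF21. None of the 32 genes passed the test in KO_LP against KO_NP (edgeR quasi-likelihood test, Benjamini-Hochberg adjusted p under 0.05 over all 15165 genes tested), where 7.17% of all genes did. At an unadjusted p under 0.05 there were 11 of the 32 genes, against 27.9% of all genes. These 11 were Pex11a, with a positive log2 fold change, and 10 enzymes, with negative ones. The negative side alone held 10 of 32 genes, against 11.9% of all genes, and 10 of the 18 enzymes. DESeq2 called 4 of the 32 genes in this comparison (Hao2, Dao, Agps and Pex11a, where it called 12.2% of all genes). Limma voom with quality weights, named limma voom below, called 3 (Cat, Hao2 and Dao, where it called 11.2%). Limma on the normalized values called 1 (Hao2, where it called 6.82%). Without KO_LP 6, edgeR called none and 10 of the 32 had an unadjusted p under 0.05, against 25.3% of all genes.

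The 3 genes of the 32 with the smallest p encode enzymes. Agps makes the ether bond of ether lipids, Dao oxidises D-amino acids, and Hao2 oxidises 2-hydroxy fatty acids; Dao and Hao2 are both enzymes of the proximal tubule. With Pex11a, which had the next smallest p, these 3 genes were taken for a closer view by p alone, and edgeR called none of them. The 250 bases before the RefSeq start of each (GRCm38.p6) follow, 5′ to 3′ on the gene's strand. Capitals mark the half-site of nuclear receptors of the PPAR and HNF4 kind (AGGTCA, or TGACCT on the other strand). For Dao, which has 3 RefSeq starts, the stretch is that of the start with a half-site. This stretch runs past 114003703, the first base of the annotated Dao gene, so much of it, the half-site included, lies within the gene. The last few bases of the Hao2 stretch lie within the annotated Hao2 gene too.
Agps, chr2:75831927-75832176, plus strand: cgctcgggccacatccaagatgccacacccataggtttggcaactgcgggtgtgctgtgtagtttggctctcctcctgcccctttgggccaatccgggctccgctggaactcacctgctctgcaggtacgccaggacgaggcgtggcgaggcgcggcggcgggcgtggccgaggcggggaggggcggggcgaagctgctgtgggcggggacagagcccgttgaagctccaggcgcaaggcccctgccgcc
Dao, chr5:114003634-114003883, plus strand: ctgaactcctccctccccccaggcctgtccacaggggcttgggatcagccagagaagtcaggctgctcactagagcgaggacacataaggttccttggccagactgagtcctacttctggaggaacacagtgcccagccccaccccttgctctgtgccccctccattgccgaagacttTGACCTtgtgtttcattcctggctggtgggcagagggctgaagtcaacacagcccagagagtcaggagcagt
Hao2, chr3:98893231-98893480, minus strand: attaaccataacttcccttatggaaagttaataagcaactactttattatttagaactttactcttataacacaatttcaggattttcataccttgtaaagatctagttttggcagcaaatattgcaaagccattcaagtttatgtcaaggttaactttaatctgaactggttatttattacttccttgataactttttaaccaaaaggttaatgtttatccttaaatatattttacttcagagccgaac
Pex11a, chr7:79743132-79743381, minus strand: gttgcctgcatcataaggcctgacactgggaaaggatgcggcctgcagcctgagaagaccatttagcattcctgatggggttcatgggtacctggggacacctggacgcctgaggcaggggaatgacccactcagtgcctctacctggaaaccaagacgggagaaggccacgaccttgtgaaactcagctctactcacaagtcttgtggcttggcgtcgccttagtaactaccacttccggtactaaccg
The letters of these stretches differ widely in base composition, with 70% G and C for Agps, 58.8% for Dao, 55.6% for Pex11a and 28.4% for Hao2. The half-site of the Dao stretch, whose first base lies 72 bases before the start, was the ground for showing that start, so it sets Dao apart from none of the others. RefSeq promoters matched 27 of the 32 genes (34 promoters). A half-site occurred in 4 of the 34 (11.8%; Cat, Dao, Ddo and Scp2), against 14.0% of 32851 promoters of the same length. The direct repeat of half-sites with 1 base between (AGGTCANAGGTCA on either strand) occurred in 0 of the 34 and in 0.0335% of all promoters. A match is a run of letters and not a bound site, and a missing match says nothing of other windows.

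Agps (chr2:75832177-75931350, GRCm38) had a lowest, median and highest value of 47.1, 60.6 and 77.4 CPM in KO_LP, against 51.5, 103 and 121 CPM in KO_NP. All 6 KO_LP libraries lay below the KO_NP mean, and the groups overlap because KO_NP 2, at 51.5 CPM, was far below the other KO_NP libraries. The log2 fold change was -0.64 ± 0.210 (SE), with an edgeR adjusted p of 0.0612. Without KO_NP 2 it was -0.77 (adjusted p = 0.0355), without KO_LP 6, the lowest KO_LP library, -0.58 (adjusted p = 0.113), and without the 3 libraries that stood apart -0.50 (adjusted p = 0.279).

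Dao (chr5:114003703-114025682) had 69.5, 107 and 119 CPM (lowest, median, highest) in KO_LP, against 122, 131 and 142 CPM in KO_NP. Every KO_LP library lay below every KO_NP library, and Dao was the 1 gene of the 32 whose groups did not overlap, against 3.71% of all genes. The log2 fold change was -0.37 ± 0.122 (SE; edgeR adjusted p = 0.0625). Without KO_LP 6 it was -0.41 (adjusted p = 0.0613), and without all 3 libraries that stood apart it was -0.31 (adjusted p = 0.0994).

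Hao2 (chr3:98874521-98893239) had 55.4, 186 and 316 CPM in KO_LP, against 283, 297 and 320 CPM in KO_NP. The KO_NP libraries were tightly grouped, and 5 of the 6 KO_LP libraries lay below all of them, while KO_LP 1 stood among them. The log2 fold change was -0.71 ± 0.238 (SE; edgeR adjusted p = 0.0655). Without KO_LP 6, the lowest library, it was -0.52 (adjusted p = 0.0667), without KO_LP 1 -0.93 (adjusted p = 0.0156), and without the 3 libraries that stood apart -0.41 (adjusted p = 0.121). With 1 surrogate variable in the fit, an axis of variation estimated from all genes, the values of Agps, Dao and Hao2 were -0.33, -0.10 and -0.45.

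Pex11a (chr7:79735957-79743131) had 134, 188 and 544 CPM in KO_LP, against 131, 143 and 185 CPM in KO_NP. The KO_LP value of 544 CPM is that of KO_LP 6, and the next highest KO_LP library had 235 CPM. The log2 fold change was 0.68 ± 0.244 (SE; edgeR adjusted p = 0.0799), and without KO_LP 6 it was 0.25 (adjusted p = 0.289). Pex11a lies on chromosome 7, as Fgf21 does, at a distance of 34.1 Mb.

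Of the other genes for enzymes that form or remove hydrogen peroxide, Cat averaged 472 ± 98.7 CPM (SD, n = 6) in KO_LP and 587 ± 48.2 CPM in KO_NP, with a log2 fold change of -0.31 ± 0.132 (SE). Pipox averaged 334 ± 49.7 CPM in KO_LP and 424 ± 69.9 CPM in KO_NP, with -0.34 ± 0.144. Ddo, the oxidase of D-aspartate, was scarcer, at 12.7 ± 2.92 CPM in KO_LP and 16.5 ± 4.65 CPM in KO_NP. All 5 genes of this group, the 4 oxidases Dao, Ddo, Hao2 and Pipox and catalase, had negative log2 fold changes, with a median of -0.37 (-0.40 without KO_LP 6 and -0.33 without the 3 libraries that stood apart), where the median of all genes was 0.03.

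Gnpat, whose enzyme acts before that of Agps in ether lipid synthesis, lay lower in all 6 KO_LP libraries than the KO_NP mean, at 34.7 ± 3.66 CPM in KO_LP and 40.03 ± 1.82 CPM in KO_NP (log2 fold change -0.21 ± 0.0837 SE, edgeR adjusted p = 0.111). Phyh averaged 414 ± 82.2 CPM in KO_LP and 520 ± 69.0 CPM in KO_NP, a log2 fold change of -0.33 (edgeR adjusted p = 0.162). Of the CoA hydrolases, Nudt19 averaged 534 ± 133 CPM in KO_LP and 724 ± 57.9 CPM in KO_NP, and Nudt7 averaged 18.5 ± 5.22 CPM in KO_LP and 18.5 ± 2.14 CPM in KO_NP. Nudt19 is on chromosome 7 too, 10.1 Mb from Fgf21. Both groups compared here carry the knockout. In KO_NP against WT_NP the log2 fold change was 0.04 for Nudt19 (edgeR adjusted p = 0.959) and -0.29 for Pex11a (edgeR adjusted p = 0.651).

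The 8 enzymes listed under beta oxidation and related reactions of acyl-CoA had values in both directions. Pecr, a reductase of trans-2-enoyl-CoA, averaged 286 ± 79.9 CPM in KO_LP and 413 ± 64.3 CPM in KO_NP (log2 fold change -0.53, edgeR adjusted p = 0.0935). Scp2, which encodes a sterol carrier and a thiolase of branched chains, averaged 136 ± 22.8 CPM in KO_LP and 167 ± 12.9 CPM in KO_NP (-0.29, edgeR adjusted p = 0.133). Amacr had 38.4, 76.5 and 103 CPM (lowest, median, highest) in KO_LP, against 34.1, 128 and 164 CPM in KO_NP, with KO_NP 2 lowest. Acaa1b averaged 437 ± 243 CPM in KO_LP and 312 ± 71.9 CPM in KO_NP (0.49, edgeR adjusted p = 0.186, and 0.14 without KO_LP 6). Decr2, a reductase of dienoyl-CoA, averaged 175 ± 61.7 CPM in KO_LP and 145 ± 17.5 CPM in KO_NP (0.27, and 0.10 without KO_LP 6). For Acaa1a, Hsd17b4, the multifunctional enzyme that hydrates and dehydrogenates the acyl chain, and Crot, which forms the carnitine esters that leave the peroxisome, log2 fold changes lay between -0.08 and 0.09, and that of Crot was -0.23 without KO_LP 6. The median over the 8 genes was -0.05, and -0.20 without KO_LP 6.

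Among the peroxins other than Pex11a, log2 fold changes ran from -0.28 to 0.18. Pex5 and Pex7, the 2 receptors that bind enzymes in the cytosol for import, had -0.23 and -0.28. Pex13 and Pex14, which form the docking site of those receptors, had -0.11 and 0.18. Pex2 and Pex10, ubiquitin ligases that recycle the receptors, both had -0.11, and Pex6, a motor that pulls them out of the membrane, had -0.14. Pex26, which anchors that motor, had -0.03. Pex3, Pex16 and Pex19, which place membrane proteins, had -0.10, 0.04 and -0.12. Their edgeR adjusted p-values lay between 0.227 and 0.864. Both transporters had positive values, 0.10 for Abcd3 and 0.48 ± 0.451 (SE) for Abcd2, which rests on very few counts.

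**Figure D2:**
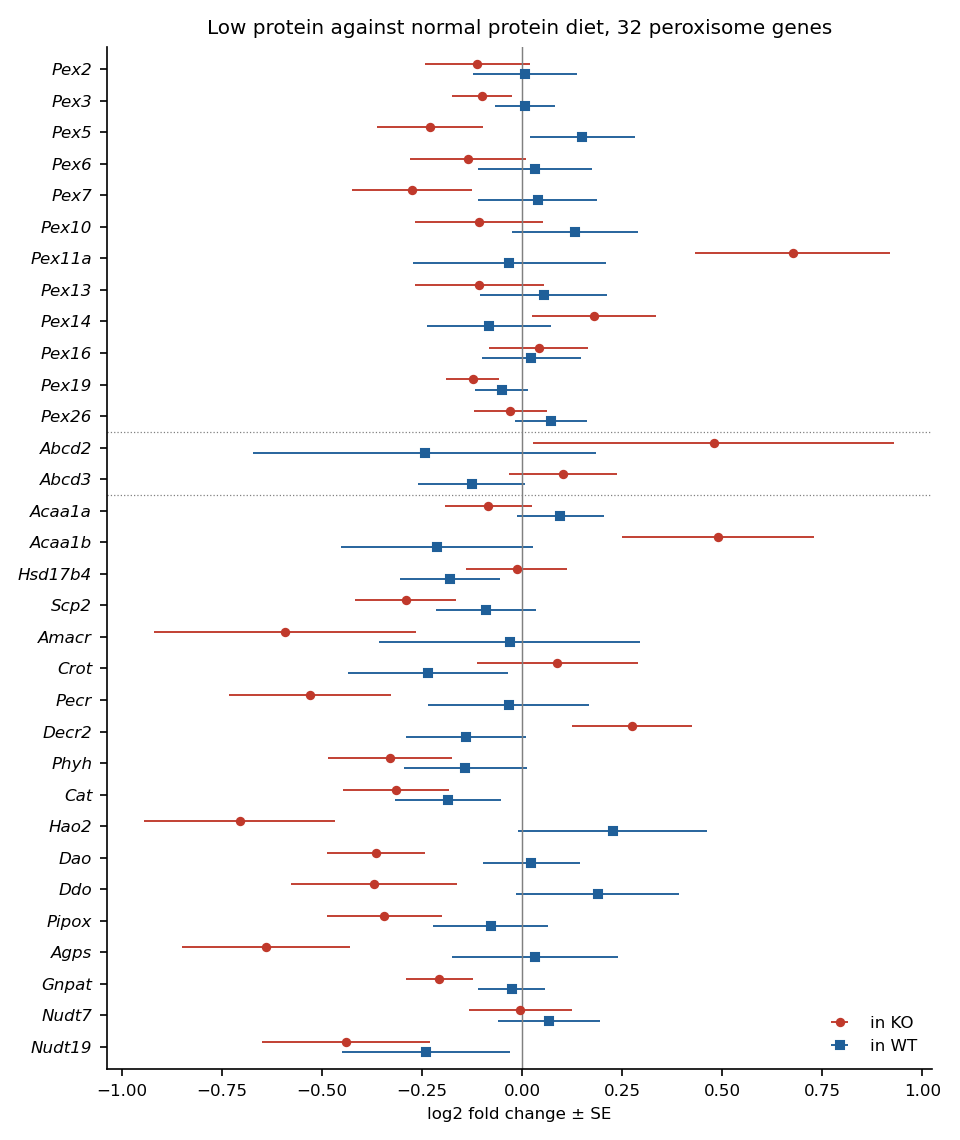
Log2 fold change of LP against NP (horizontal axis) for the 32 genes (vertical axis, by role: peroxins, transporters, enzymes), in KO mice (circles) and in WT mice (squares). Bars are the SE of the edgeR fit; the largest values in KO are those of Hao2 (-0.71) and Pex11a (0.68), and in WT every value lies between -0.24 and 0.23.

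Set side by side, 15 of the 18 enzymes had a negative log2 fold change in KO_LP against KO_NP, with a median of -0.32 (-0.31 without KO_LP 6 and -0.27 without the 3 libraries that stood apart). For the 12 peroxins 9 were negative, with a median of -0.11 (-0.08 and -0.06 in the same reduced sets). Without KO_LP 6, 16 of the 18 enzymes and 11 of the 12 peroxins were negative, so most genes of both kinds shared a direction. The median of all genes was 0.03. The mean log2 CPM over the enzymes was 6.91 ± 0.214 (SD, n = 6) in KO_LP and 7.18 ± 0.131 in KO_NP, and that over the peroxins was 4.77 ± 0.196 in KO_LP and 4.82 ± 0.0989 in KO_NP. Within each library, the difference of these means (enzymes minus peroxins, log2 CPM) was 1.93 to 2.29 in KO_LP, 2.29 to 2.40 in KO_NP, 2.12 to 2.43 in WT_LP and 2.17 to 2.49 in WT_NP. Every KO_LP library lay below every KO_NP library, with the highest KO_LP library (KO_LP 1, 2.289) just under the lowest KO_NP library (KO_NP 2, 2.292), while both WT groups overlapped with both. The lowest difference, that of KO_LP 6, went with the highest peroxin mean of all 24 libraries (5.04 log2 CPM). The enzyme mean of KO_LP 6 was 6.97 log2 CPM, not below the KO_LP mean. These differences are a description, with no test, since the genes were chosen with results of these data known.

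**Figure D3:**
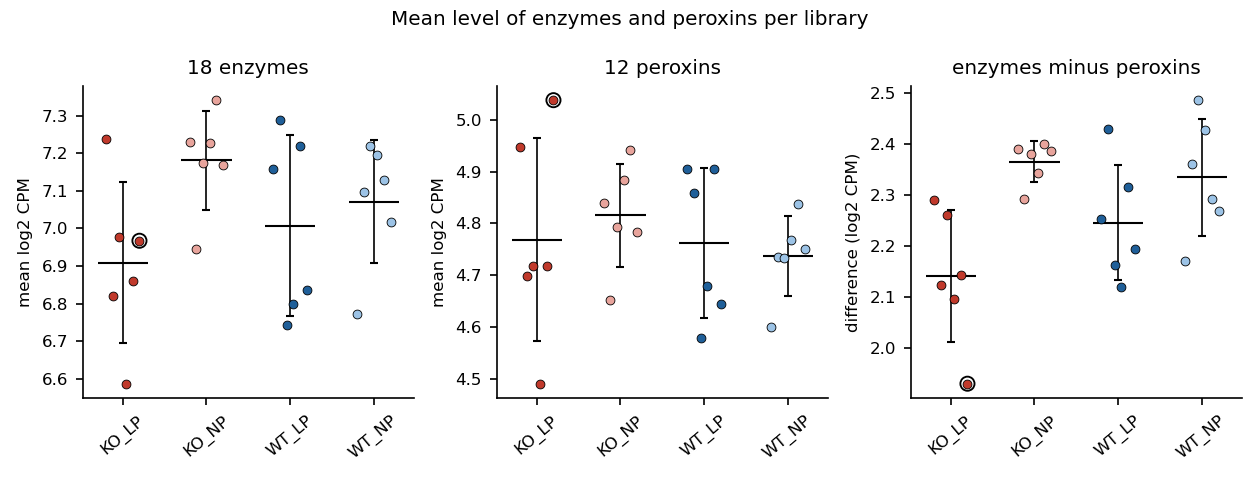
Mean log2 CPM per library over the 18 enzymes, over the 12 peroxins, and their difference (vertical axes, not from 0), by group. Lines are means and error bars SD (n = 6). The difference lies between 1.93 and 2.29 in KO_LP and between 2.29 and 2.40 in KO_NP. The ringed library KO_LP 6 has the lowest difference and the highest peroxin mean (5.04).

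Markers of cell types moved with this comparison, in which 3.58% of all genes were called lower and 3.59% higher. All 12 markers of proximal tubule S1 and S2 had negative log2 fold changes in KO_LP against KO_NP (median -0.32, 2 called lower), as had all 10 markers of the S3 segment (median -0.50, 2 called lower). The mean over the S3 markers was 5.71 to 6.70 log2 CPM in KO_LP and 6.26 to 6.96 in KO_NP. Of 8 markers of the thick ascending limb and distal tubule, 6 had negative values as well, with none called. Their median was -0.19, and -0.14 without the 3 libraries that stood apart. The 10 macrophage markers all had positive values (median 0.92, 3 called higher), as had 9 injury markers of the tubule (median 1.49, 6 called higher) and 9 tested markers of T and B cells (median 1.27, 1 called higher). The mean over the macrophage markers was 5.10 to 6.86 log2 CPM in KO_LP and 4.67 to 5.54 in KO_NP, and over the injury markers 5.25 to 6.70 in KO_LP and 4.01 to 4.89 in KO_NP. Without KO_LP 6, 0 of the S1 and S2 markers, 1 of the S3, 0 of the macrophage, 1 of the injury and 1 of the T and B cell markers were called. In that fit 3.04% of all genes were called. Without the 3 libraries that stood apart, the medians were -0.25 for the S1 and S2 markers, -0.41 for S3, 0.66 for macrophages, 0.87 for injury and 1.43 for T and B cells. The part of these shifts in the values of the peroxisomal enzymes was not tested.

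Library KO_LP 6 stood at an end of the range in many genes, among the 32 and over all genes. It lay above all 5 other KO_LP libraries in 16 of the 32 genes, below all of them in 6 and within their range in 10. This count was not made over all genes, so it is not read as particular to the 32. KO_LP 6 was the highest of all 24 libraries in 11 of the 32 genes, against 13.9% of all genes. It was the lowest in 4 of the 32, near the share of all genes (12.8%). Relative to the median of the other KO_LP libraries, Pex11a stood at 3.06 times (544 CPM), Crot at 2.76 times (229 CPM), Acaa1b at 2.75 times (904 CPM) and Pex14 at 2.19 times (77.2 CPM). Hsd17b4, Abcd3, Decr2, Nudt7, Pex13, Pex16 and Acaa1a were also at their highest there. On the other side Hao2 stood at 0.267 times that median (55.4 CPM) and Amacr at 0.430 times (38.4 CPM), and Hao2, Pecr, Agps and Pex6 had their lowest values of all libraries. Genes known as PPAR alpha targets were high in the same library. Ehhadh, a bifunctional enzyme of peroxisomal beta oxidation, had 425 CPM there. Cyp4a10 and Cyp4a14, fatty acid hydroxylases of the endoplasmic reticulum, had 2010 and 5150 CPM. The mean over 14 PPAR alpha genes was 7.29 log2 CPM in KO_LP 6 and 5.45 to 6.10 in the other KO_LP libraries. KO_LP 6 also had the lowest S1 and S2 marker mean (7.68 log2 CPM) and the highest injury marker mean (6.70).

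**Figure D4:**
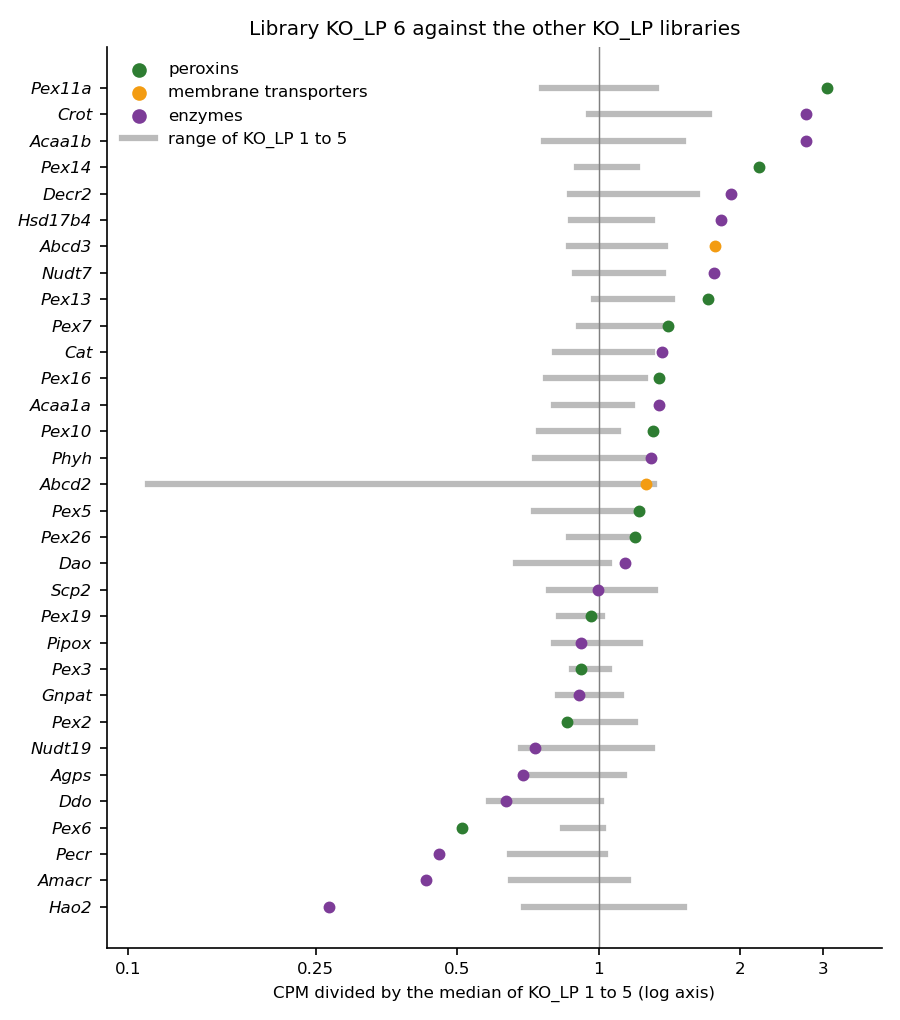
CPM of each of the 32 genes in KO_LP 6 divided by the median of KO_LP 1 to 5 (horizontal log axis; points coloured by role), with the range of those 5 libraries as grey bars. Pex11a, Crot, Acaa1b and Pex14 lie at 2.19 to 3.06 times the median, and Hao2 lies at 0.267 times.

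KO_LP 4 was the lowest of all 24 libraries in 11 of the 32 genes, against 9.09% of all genes, among them the import receptors Pex5 and Pex7 and the enzymes Dao, Scp2, Crot, Gnpat and Nudt19. It also had the lowest share of counts from mitochondrially encoded genes (18.5%, with 21.8% to 30.5% in WT and KO_NP libraries). WT_LP 2 was highest in 7 of the 32 genes, against 5.68% of all genes, and WT_LP 3 was lowest in 7, against 2.38%. No other library was highest or lowest in more than 4.

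In mice with FGF21 the diet comparison gave no call. No gene passed the edgeR test in WT_LP against WT_NP (0% of 15165 genes), and 580 genes (3.82%) reached an unadjusted p under 0.05; DESeq2 called 16 genes, limma voom 6 and limma on the normalized values 0. None of the 32 genes reached an unadjusted p under 0.05. The 3 smallest p-values were those of Hsd17b4, Cat and Crot. Hsd17b4 had 77.4, 91.3 and 107 CPM (lowest, median, highest) in WT_LP, against 94.9, 105 and 112 CPM in WT_NP, a log2 fold change of -0.18 ± 0.125 (SE). Cat had 353, 496 and 592 CPM in WT_LP, against 460, 556 and 631 CPM in WT_NP, with -0.19 ± 0.132. Crot had 84.3, 93.8 and 108 CPM in WT_LP, against 96.9, 111 and 126 CPM in WT_NP, with -0.23 ± 0.200. In all 3 genes the groups overlap, and the edgeR adjusted p was 0.99996 for each. The median log2 fold change was -0.06 for the enzymes and 0.03 for the peroxins, and -0.01 for all genes. Without the 3 libraries that stood apart, WT_NP 1 among them, it was -0.12 for the enzymes and -0.0067 for the peroxins. All 10 macrophage markers had positive values here (median 0.31, and 0.72 without the 3 libraries), as had 6 of 9 injury markers (median 0.40, and 0.65). Of the T and B cell markers 8 of 9 had negative values (median -0.66, and -0.13 without the 3 libraries). Of the S1 and S2 markers 10 of 12 had positive values (median 0.09, and 0.0088 without the 3 libraries). None of these markers was called, and their part was not tested.

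The difference between the LP effects (KO minus WT) asks whether the diet acted otherwise without FGF21. No gene passed the edgeR test for it (0% of all genes), 2430 genes (16%) reached an unadjusted p under 0.05, and DESeq2 called 117 genes, with limma voom and limma on the normalized values at 0. Of the 32 genes, 4 reached an unadjusted p under 0.05. Hao2 had a difference of -0.93 ± 0.335 (SE; edgeR adjusted p = 0.224), Dao -0.39 ± 0.171 and Agps -0.67 ± 0.296 (both edgeR adjusted p = 0.275), and Acaa1b 0.70 ± 0.340 (edgeR adjusted p = 0.312). The Acaa1b difference was 0.35 without KO_LP 6 (edgeR adjusted p = 0.508). Without the 3 libraries that stood apart, those of Hao2, Dao and Agps were -0.53, -0.25 and -0.46. The median difference was -0.19 over the enzymes (-0.24 without KO_LP 6 and -0.12 without the 3 libraries), -0.11 over the peroxins (-0.08 and -0.06 in the same reduced sets) and 0.03 over all genes. Of the S1 and S2 markers 11 of 12 had negative differences (median -0.51, and -0.28 without the 3 libraries), and all 9 injury markers had positive ones (median 1.10, and 0.11 without the 3 libraries). Their part was not tested. The LP effects on these genes are thus not shown to differ between the genotypes.

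KO mice were next compared with WT mice on the same diet. On LP, none of the 32 genes passed the edgeR test, where 2.93% of all genes did, and 5 reached an unadjusted p under 0.05, against 21.1% of all genes. DESeq2 and limma voom each called Hao2 and Dao here, with 6% and 5.78% of all genes, and limma on the normalized values called Hao2, with 2.88%. Dao had 69.5, 107 and 119 CPM (lowest, median, highest) in KO_LP, against 104, 136 and 163 CPM in WT_LP. The groups overlap through WT_LP 3, the lowest WT_LP library, and all 6 KO_LP libraries lay below the WT_LP mean (log2 fold change -0.41 ± 0.121 SE, edgeR adjusted p = 0.0607). Without WT_LP 3 the value was -0.48 with an adjusted p of 0.0253, and without KO_LP 6, the highest KO_LP library for Dao, it was -0.46 with 0.0487. Among the edgeR fits with 1 library left out, Dao was called only in these and without WT_NP 1. It was not called without the 3 libraries that stood apart. Hao2 had 55.4, 186 and 316 CPM in KO_LP, against 252, 322 and 370 CPM in WT_LP. KO_LP 1 was the 1 KO_LP library above the lowest WT_LP library (log2 fold change -0.78 ± 0.238 SE, edgeR adjusted p = 0.0691), and without it the value was -1.01 with an adjusted p of 0.0161. Without the 3 libraries that stood apart, the value of Hao2 was -0.49 (adjusted p = 0.0672). Decr2 had 124, 143 and 273 CPM in KO_LP, against 106, 131 and 151 CPM in WT_LP. Its higher KO_LP values were those of KO_LP 6 and KO_LP 1 (log2 fold change 0.43 ± 0.151 SE, edgeR adjusted p = 0.112), and without KO_LP 6 the value was 0.25. The 2 others with an unadjusted p under 0.05 were Pex14 (0.36, adjusted p = 0.180, and 0.11 without KO_LP 6) and Pex16 (0.28, adjusted p = 0.195). These comparisons share the KO_LP libraries with the diet comparison in KO.

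The markers moved here too, in a comparison where 2.93% of all genes were called. All 9 injury markers and 9 of 10 macrophage markers had positive log2 fold changes in KO_LP against WT_LP (medians 0.71 and 0.33, none called). All 9 tested T and B cell markers had positive values (median 1.24, 2 called higher). Of the S1 and S2 markers 10 of 12 had negative values (median -0.30, none called), and the S3 markers had a median of -0.63, with 4 of 10 called lower. Of the thick ascending limb and distal markers 6 of 8 had negative values, with 1 called lower. Their median was -0.21, and -0.28 without the 3 libraries that stood apart. Without the same 3 libraries, the medians were 0.19 for injury, 0.09 for macrophages, 1.08 for T and B cells, -0.11 for S1 and S2 and -0.44 for S3. Their part in the values of Dao and Hao2 was not tested.

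On NP, none of the 32 genes passed the edgeR test in KO_NP against WT_NP, where 0.574% of all genes did, and 2 reached an unadjusted p under 0.05, against 12.6% of all genes. Phyh had 417, 518 and 611 CPM in KO_NP, against 344, 413 and 466 CPM in WT_NP. All 6 KO_NP libraries lay above the WT_NP mean and the groups overlap (log2 fold change 0.35 ± 0.154 SE, edgeR adjusted p = 0.336). Pex16 had 20.2, 24.4 and 29.2 CPM in KO_NP, against 17.7, 20.0 and 24.8 CPM in WT_NP, with 0.26 ± 0.124 (edgeR adjusted p = 0.387). Pex26 had 16.6, 19.5 and 23.0 CPM in KO_NP, against 15.6, 17.1 and 20.0 CPM in WT_NP, with 0.17 ± 0.0906 (edgeR adjusted p = 0.442). Of the 32 genes, 25 had positive values, with a median of 0.09, where all genes had -0.02. Of the S1 and S2 markers 10 of 12 had positive values (median 0.20), while 8 of 9 injury markers (median -0.50), 9 of 10 macrophage markers (median -0.24) and all 9 T and B cell markers (median -0.58) had negative ones, with none called. Without the 3 libraries that stood apart, these medians were 0.14 for S1 and S2, 0.12 for injury, 0.22 for macrophages and -0.21 for T and B cells, and that of the 32 genes was 0.07. The part of the markers in these values was not tested.

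**Figure D5:**
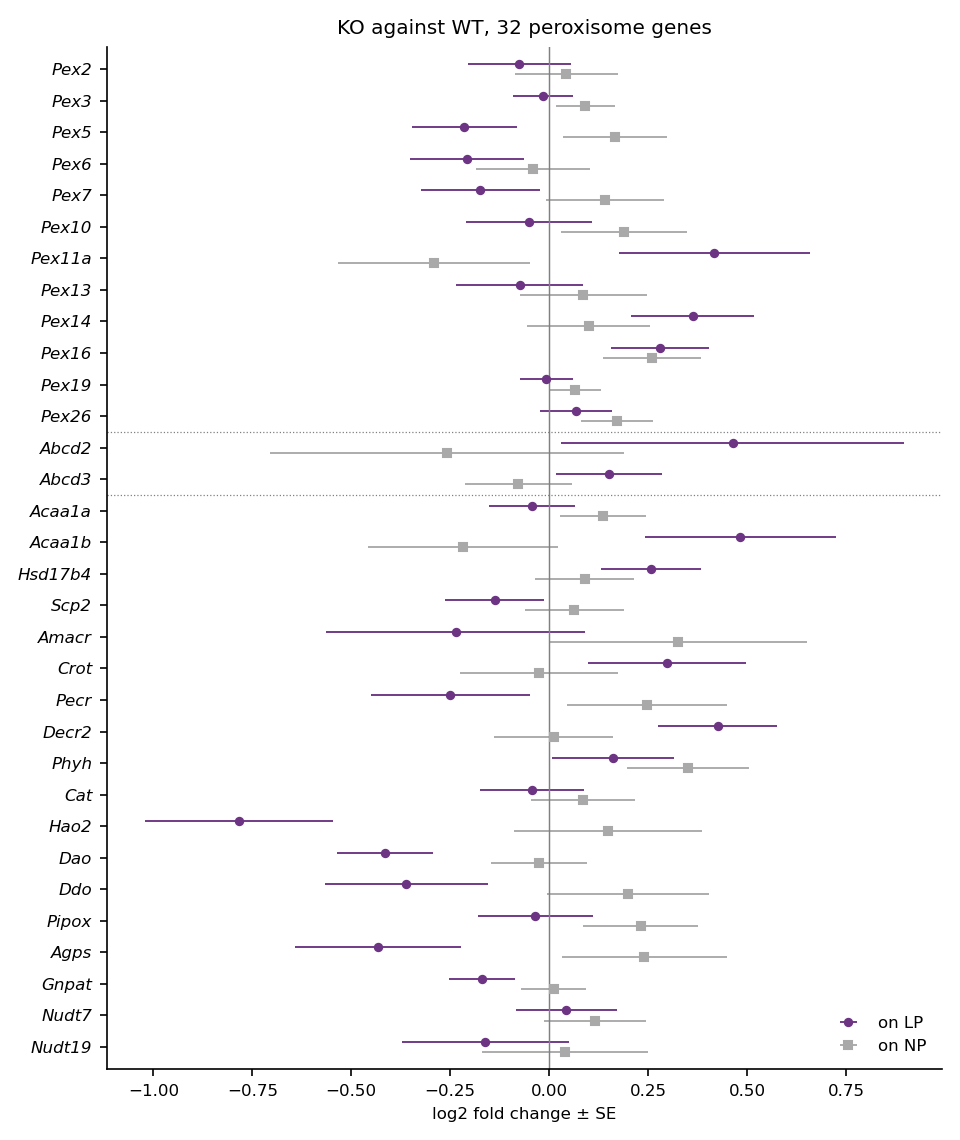
Log2 fold change of KO against WT (horizontal axis) for the 32 genes (vertical axis, by role) on LP (circles) and on NP (squares). Bars are the SE of the edgeR fit; on LP the values of Hao2 (-0.78) and Dao (-0.41) lie on the negative side, and on NP they are 0.15 and -0.03.

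A list of 45 other peroxisome genes, of which 40 were tested, did hold calls. In KO_LP against KO_NP, 5 of the 40 fell and none rose, where 3.58% of all genes fell and 3.59% rose. Gstk1, a peroxisomal glutathione transferase, had 36.3, 48.3 and 69.1 CPM (lowest, median, highest) in KO_LP, against 67.2, 78.8 and 102 CPM in KO_NP, and fell by 0.74 on the log2 scale (edgeR adjusted p = 0.0156, and called in each of 24 fits that left out 1 library). Eci3, an isomerase of unsaturated acyl-CoA, had 64.9, 138 and 199 CPM in KO_LP, against 207, 241 and 275 CPM in KO_NP, with no overlap (log2 fold change -0.85, edgeR adjusted p = 0.0236). The fall of Acox3, an oxidase of branched acyl-CoA, was -0.55 on the log2 scale (edgeR adjusted p = 0.0387), that of Acbd5, which tethers peroxisomes to the endoplasmic reticulum, -0.27 (adjusted p = 0.0393), and that of Nudt12, a hydrolase of NADH and related nucleotides, -0.39 (adjusted p = 0.0398). Acox3, Acbd5 and Nudt12 each lost the call in 7 or 8 of the 24 fits with 1 library left out, all of them fits without a KO library, and Eci3 in 2 of them, those without KO_LP 4 or KO_NP 5. Without KO_LP 6, 3 of the 5 stayed called (Gstk1, Eci3 and Acbd5; 3.04% of all genes), and without all 3 libraries that stood apart none did (0.235% of all genes), with Gstk1 at an adjusted p of 0.0516. The median over the 40 genes was -0.16.

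In KO_LP against WT_LP, 2 of these 40 genes were called, 1 in each direction, where 2.93% of all genes were. Slc27a2, an acyl-CoA synthetase of very long chains, had 551, 750 and 986 CPM in KO_LP, against 820, 1051 and 1274 CPM in WT_LP (log2 fold change -0.52, edgeR adjusted p = 0.0478), and stayed called in 6 of the 24 fits with 1 library left out. In the other 3 comparisons edgeR called none of the 40, with 0 at an unadjusted p under 0.05 in WT_LP against WT_NP (3.82% of all genes), 7 for the difference between the LP effects (16% of all genes) and 8 in KO_NP against WT_NP (12.6% of all genes).

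Of 14 tested genes of PPAR alpha, its regulators and its targets, 6 rose and 1 fell in KO_LP against KO_NP, where 3.59% of all genes rose and 3.58% fell. Cyp4a10 had 200.2, 284 and 2010 CPM (lowest, median, highest) in KO_LP, against 106, 151 and 309 CPM in KO_NP, a log2 fold change of 1.74 (edgeR adjusted p = 0.0314), and 0.87 without KO_LP 6 (adjusted p = 0.0906). Cyp4a14 had 86.0, 254 and 5150 CPM in KO_LP, against 5.54, 19.7 and 387 CPM in KO_NP, a log2 fold change of 3.65 (edgeR adjusted p = 0.0436), and 1.41 without KO_LP 6 (adjusted p = 0.272). Without KO_LP 6, 1 gene of the list was called (3.04% of all genes). Ppara itself, at 63.8 ± 17.2 CPM (SD, n = 6) in KO_LP and 83.8 ± 28.5 CPM in KO_NP, had a log2 fold change of -0.39 (edgeR adjusted p = 0.260). Ehhadh had 11.8, 39.3 and 425 CPM in KO_LP, against 3.80, 41.4 and 54.0 CPM in KO_NP, with 1.62 (edgeR adjusted p = 0.130) and 0.16 without KO_LP 6.

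In the other comparisons none of these 4 genes was called. In WT_LP against WT_NP the log2 fold changes were -0.25 for Ppara, 0.31 for Ehhadh, 0.06 for Cyp4a10 and 1.03 for Cyp4a14. In KO_LP against WT_LP they were -0.15 for Ppara, 1.49 for Ehhadh, 1.11 for Cyp4a10 and 2.14 for Cyp4a14, and without KO_LP 6 the values of Ehhadh, Cyp4a10 and Cyp4a14 were 0.03, 0.24 and -0.09. In KO_NP against WT_NP they were -0.01 for Ppara, 0.19 for Ehhadh, -0.56 for Cyp4a10 and -0.48 for Cyp4a14. The differences between the LP effects (KO minus WT) were -0.14 for Ppara, 1.31 for Ehhadh, 1.67 for Cyp4a10 and 2.62 for Cyp4a14. Without KO_LP 6 the differences of Ehhadh, Cyp4a10 and Cyp4a14 were -0.15, 0.80 and 0.38. Their edgeR adjusted p-values in these 4 comparisons lay between 0.156 and 0.99996. For mitochondrial fatty acid oxidation, 1 of 17 genes was called in KO_LP against KO_NP, where 7.17% of all genes were. It was Echs1, the hydratase of enoyl-CoA, which fell by 0.36 on the log2 scale (edgeR adjusted p = 0.0297).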

How the data were processed

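Kidney cortex RNA of 24 mice was measured with Lexogen QuantSeq, per the labels' protocols. The authors deposited raw read counts for each gene, and normalized values, a signal equal to the deposited counts divided by 1 factor per library. Build GRCm38 and DESeq2 1.22.2 are named in the submitters' processing notes; no source used here names an aligner, a counter or its use of strand. Of 16921 identifiers, 14208 had symbols in the table and 2668 got them from GENCODE M21; 45 had none.

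Raw counts were tested with edgeR 4.0.16 (TMM, filterByExpr, robust quasi-likelihood fit with 4 group means; 15165 genes tested, 1756 below the filter; biological coefficient of variation 19.62%), with tests on both sides and p-values adjusted after Benjamini-Hochberg over the 15165 genes. CPM are counts per 1000000 of the TMM-scaled library size; log2 CPM use a prior count of 2. SE are those implied by the F test. The edgeR fit was tested on simulated counts drawn without libraries that stand apart, so that test does not cover their effect on the calls. Replicates are separate mice, named by identifiers in the labels; replicate numbers only name libraries. The labels give no batch, and index numbers follow the groups, so batch and group cannot be told apart. Alternatives used DESeq2 1.42.0, limma 3.58.1 (voom with quality weights per library, and log2 of the normalized value plus 1), sva 3.50.0 and left-out libraries.

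The members and lists were chosen with earlier results of these data known. Named are all 32 members, other peroxisome genes called (at most 8 per comparison), and Ppara, Ehhadh, Cyp4a10 and Cyp4a14; ranges per group are given for the 3 members with the smallest p where none is called. Other genes are named where singled out after their values were seen. A few other genes that this rule names are not reported here. Acot5, Hao1, Uox, Agxt, Far2 and Fgf21 were not analysed here. Genes with another gene within 500 bases of their 3′ end are Pex6, Pex14, Abcd3, Acaa1b, Scp2 and Pecr, and their counts may hold reads of both.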

Additional observations from a re-analysis of the deposited data

Results flagged for a closer look

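A total of 128 groups of 6 libraries (32 genes in 4 groups) were examined for 1 library far from the other 5, by Dixon's ratio on log2 CPM, and 10 were singled out; chance alone gives about 1 in 20.

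In KO_LP, Pex6 was low in KO_LP 6 (8.50 CPM, with 13.9 to 16.9 CPM in the other 5 libraries) and Pex14 was high in it (77.2 CPM, with 31.7 to 42.6). Pex19 and Dao were low in KO_LP 4 (45.9 CPM, with 53.5 to 56.6, and 69.5 CPM, with 102 to 119). Abcd2 was low in KO_LP 2 (0.0676 CPM, with 0.612 to 0.805), where it had 1 count.

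In KO_NP, Pipox was low in KO_NP 2 (290.2 CPM, with 414 to 489 in the other 5 libraries). In WT_NP, Pex6, Hao2 and Dao were low in WT_NP 1 (11.05 CPM, with 15.9 to 18.5; 167 CPM, with 261 to 339; and 92.3 CPM, with 131 to 154). Acaa1b was high in WT_NP 4 (475 CPM, with 320 to 366). KO_LP 4 and WT_NP 1 had macrophage marker means of 6.86 and 6.44 log2 CPM; the part of this in the low values was not tested.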

How the results depend on the processing

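No member that was called lost its call or turned its direction under any alternative, since none was called. Of 5394 values of members under the alternatives, 29 became called, all in LP against NP in KO or in KO against WT on LP, and 234 uncalled values changed sign. For LP against NP in KO, members called numbered 4 with DESeq2, 3 with limma voom, 1 with limma on the normalized values (Hao2) and 0 to 3 when 1 library was left out; the calls came without KO_LP 1 (Hao2, Scp2 and Agps), KO_NP 2, WT_LP 2 (Agps each), WT_LP 3 (Dao) or WT_NP 1 (Hao2, Dao and Agps). For KO against WT on LP they numbered 2 with DESeq2, 2 with limma voom, 1 with limma on the normalized values, 1 with 1 surrogate variable and 1 with a surrogate variable by svaseq (Decr2 both times), and 0 to 2 when 1 library was left out (Hao2 without KO_LP 1, Dao without KO_LP 6 or WT_LP 3, both without WT_NP 1). In the other 3 comparisons it was 0 to 0.

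Over all genes, calls for LP against NP in KO numbered 1846 with DESeq2, 1693 with limma voom, 4 with 1 surrogate variable, 6 with svaseq, 36 without the 3 libraries that stood apart, and 122 to 2006 with 1 left out, against 1087. For LP against NP in WT they numbered 16 with DESeq2, 6 with limma voom and 0 to 2 with 1 left out; for the difference, 117 with DESeq2 and 0 to 0. For KO against WT on NP they numbered 246 with DESeq2, 140 with limma voom and 52 to 151 with 1 left out, against 87. For KO against WT on LP they numbered 910 with DESeq2, 877 with limma voom, 290 with 1 surrogate variable, 200 without the 3 libraries, 161 with the compared libraries alone and 180 to 733 with 1 left out, against 445. The causes were not tested. The fits by svaseq and without the 3 libraries were chosen after seeing the data. No paired analysis was possible because the labels give each mouse its own identifier and no number shared between groups. At 1 to 15 counts per library, depth limits what Abcd2 can show.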

Other observations

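In WT_LP the enzymes varied together. Libraries WT_LP 1, 2 and 5 were the 3 highest of the 6 in 13 of the 18 enzymes and in 6 of the 12 peroxins, and in 14.9% of all genes tested. Agps had 102, 121 and 93.4 CPM in WT_LP 1, 2 and 5, and 63.0, 55.3 and 57.0 CPM in WT_LP 3, 4 and 6. Amacr had 128, 132 and 108 CPM in WT_LP 1, 2 and 5, and 61.4, 48.1 and 49.9 CPM in WT_LP 3, 4 and 6. Phyh had 420, 528 and 421 CPM in WT_LP 1, 2 and 5, and 274, 288 and 286 CPM in WT_LP 3, 4 and 6. The same libraries differed in macrophage markers, whose mean was 5.05, 5.03 and 4.69 log2 CPM in WT_LP 1, 2 and 5, and 6.03, 6.403 and 5.61 in WT_LP 3, 4 and 6. No label separates these libraries, the pattern was noticed in the data, and it was not tested.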
